A study of Mus musculus with 11 samples.

Results

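The 38 genes described here are direct targets of the transcription factor p53 and the gene for p53 itself, Trp53. They were chosen by name from what is known of the p53 pathway, not from their levels in these libraries, although results of these data were known when the list was drawn up. All 38 were found among the 36528 gene identifiers listed, and all 38 passed the filter on low counts that left 18224 genes for testing.

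The study measured poly(A) RNA by sequencing in cell lines from mouse liver cancers that carry a mutant YAP or TAZ. These proteins are transcriptional coactivators that the Hippo kinases hold in check by phosphorylating serines, and the mutants named here replace such serines with alanine. The 3 groups were YAP-S127A (3 libraries), YAP-5SA (3 libraries; the sample labels spell it YAP-S5A) and TAZ-S89A (5 libraries). The labels give the tissue as liver for every library and give no treatment, time, strain, age, promoter or clone. A group with unmutated YAP and TAZ was not analysed here. Whether replicates came from separate cultures, lines or tumours is not in the labels, so the p-values below speak only of the spread among these libraries, and that spread may be technical. The identity of a cell line and the mutant it carries cannot be told apart.

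p53 is held at a low level by the ubiquitin ligase Mdm2, and DNA damage, oncogenic signals and other stresses release it from that control. Released p53 binds paired decamers near its target genes and raises their transcription: targets stop the cell cycle, start apoptosis, repair DNA, change metabolism, and, as with Mdm2 itself, feed back on p53. Liver tumours often lose this response by mutation of the p53 gene or of its regulators, and in hepatocytes p53 activity is known for limiting regrowth of the tissue through p21.

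The libraries held 20071144 to 49159713 counts. TAZ-S89A replicates 4 and 5 carry sample numbers of a second series, and libraries within a group were not equally alike. A chi-square statistic per degree of freedom, where 1 would be sampling noise alone, was 2.01 between TAZ-S89A replicates 4 and 5 and 5.62 between replicates 1 and 2, against 101.3 to 218 for the other TAZ-S89A pairs. YAP-5SA replicate 2 stood apart from its group, at 83.0 and 131.5 against 15.6 for the other pair. Hepatocyte markers were close to absent: 12 genes summed to 15.5 to 18.2 counts per 1000000 (CPM) in YAP-S127A, 15.6 to 16.8 in YAP-5SA and 1.30 to 2.29 in TAZ-S89A, with 10, 10 and 12 of the 12 below 1 CPM on average and Serpina1a at 0 in all 11 libraries. The summed levels of 8 biliary and epithelial markers (641 to 809.5, 5709 to 8496 and 2131 to 4204 CPM) and of 11 leukocyte and macrophage markers (24.6 to 29.2, 86.7 to 99.0 and 28.5 to 37.7 CPM, with Adgre1 at 0 in YAP-S127A and TAZ-S89A) were highest in YAP-5SA in these libraries. The sum of 9 fibroblast and stellate markers was highest in YAP-S127A (5978 to 6570, 285 to 383 and 1797 to 3403 CPM, with Lum and Lrat at 0 in YAP-S127A and TAZ-S89A). In TAZ-S89A, Col1a2 made up most of this sum at 2219 CPM on average. Col1a1 and Pdgfra were lower in TAZ-S89A than in YAP-5SA, Col1a2, Col3a1 and Pdgfrb were higher, and Dcn was not called. The sum of 8 endothelial markers was also highest in YAP-S127A, where Emcn made up most of it at 7.61 CPM on average (9.09 to 11.3, 1.28 to 1.57 and 0.377 to 1.14 CPM, with Emcn and Lyve1 at 0 in TAZ-S89A). These sums differ between the same 3 groups, none of them in the order TAZ-S89A, YAP-S127A, YAP-5SA without overlap. Some single markers did have that order without overlap, among them Krt7, Krt19, Krt8, Csf1r and Lyz2. Others, such as Krt18, Cd14 and Sox9, did not. The part of the markers in the results below was not tested. In bulk RNA, fewer cells of a type and less RNA per cell cannot be told apart.

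Most of these 38 members were lower in TAZ-S89A than in either YAP group and higher in YAP-5SA than in YAP-S127A. A list of further p53 targets, counted below, was near the shares of all genes in TAZ-S89A against YAP-S127A. Against YAP-S127A, 27 of the 38 were lower in TAZ-S89A (71.1%, where 30.6% of all genes tested were called lower) and 4 were higher (10.5%, against 27.0% of all genes). Against YAP-5SA, 32 were lower in TAZ-S89A (84.2%, against 31.0% of all genes) and 1, Dram1, was higher (2.63%, against 26.9%). YAP-5SA exceeded YAP-S127A for 29 members (76.3%, against 28.2% of all genes), and 2, Gadd45a and Dram1, were lower (5.26%, against 27.0%). Calls are at a Benjamini-Hochberg adjusted p under 0.05 over all 18224 genes in edgeR's quasi-likelihood test, and every adjusted p and standard error (SE) below comes from that fit.

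The median log2 fold change of the members was -0.96 for TAZ-S89A against YAP-S127A, -1.93 for TAZ-S89A against YAP-5SA and 1.03 for YAP-5SA against YAP-S127A. Over all genes tested the same medians were -0.03, -0.04 and 0.0086. The 3 comparisons share libraries pair by pair, so they are not independent and their values are only set side by side. In scaled counts (CPM after TMM scaling), every TAZ-S89A library lay below every YAP library for 24 members (63.2%, against 16.0% of all genes tested), and for no member did every TAZ-S89A library lie above every YAP library (12.1% of all genes). For 21 members (55.3%, against 6.63% of all genes) the order TAZ-S89A, then YAP-S127A, then YAP-5SA held with no overlap between any libraries of different groups. The 24 include Mdm2, Cdkn1a, Bax and Eda2r, and those among them outside the 21 are Trp53cor1, Bbc3 and Rps27l.

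**Figure D1:**
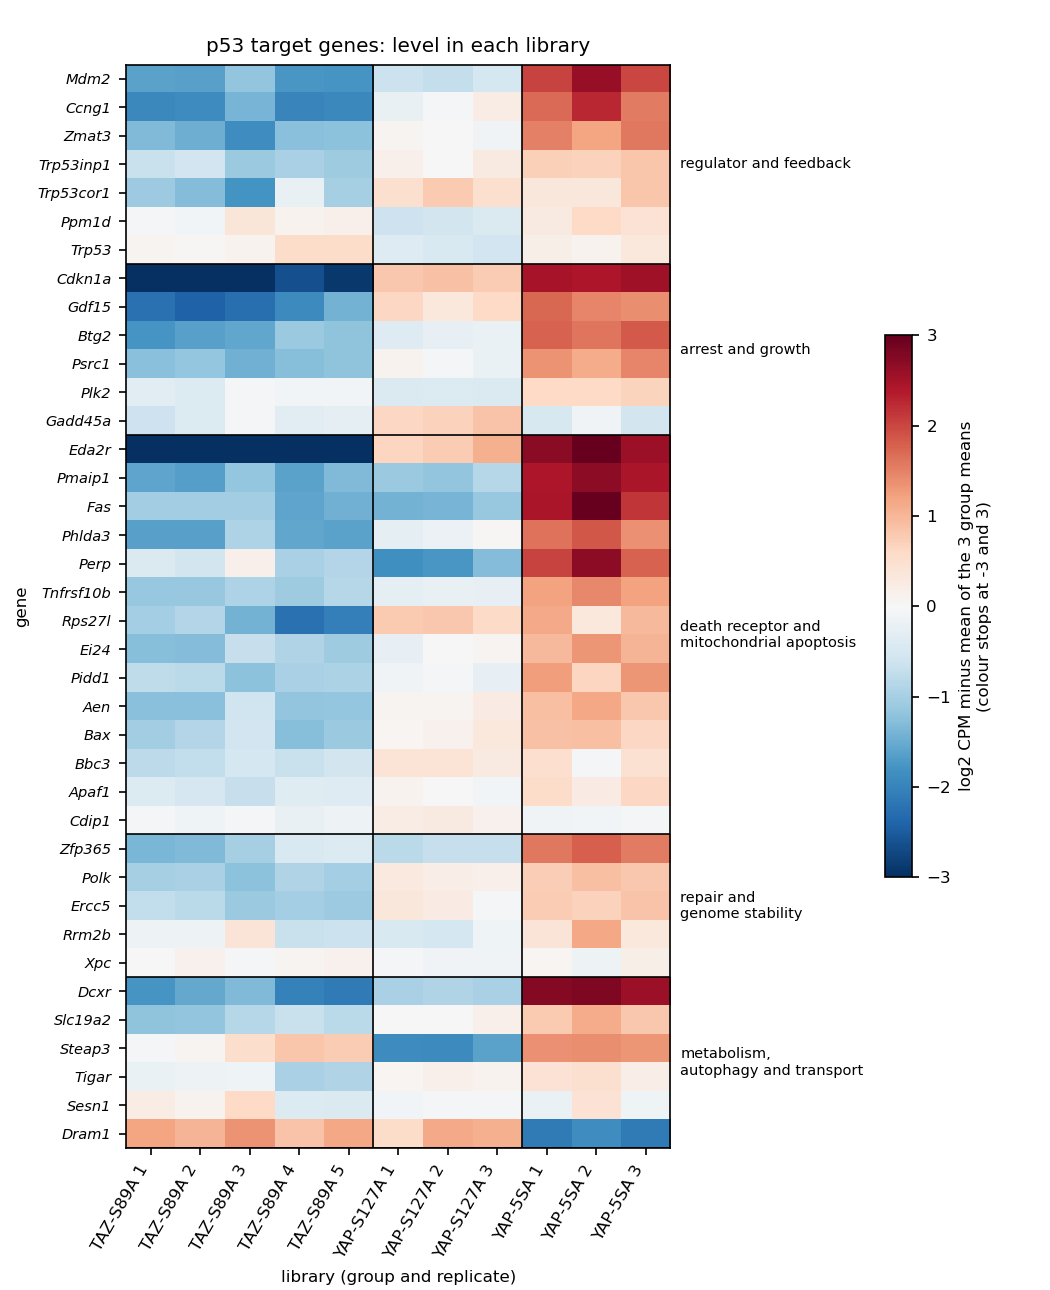
Each column is 1 of the 11 libraries and each line of cells 1 of the 38 members, ordered by role; colour gives the log2 CPM of a library minus the mean of the 3 group means of that gene, from blue (low) to red (high), and stops at -3 and 3. Most members are blue in the 5 TAZ-S89A columns and red in the 3 YAP-5SA columns; Trp53, Steap3, Perp and Dram1 are among those with another order.

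**Figure D2:**
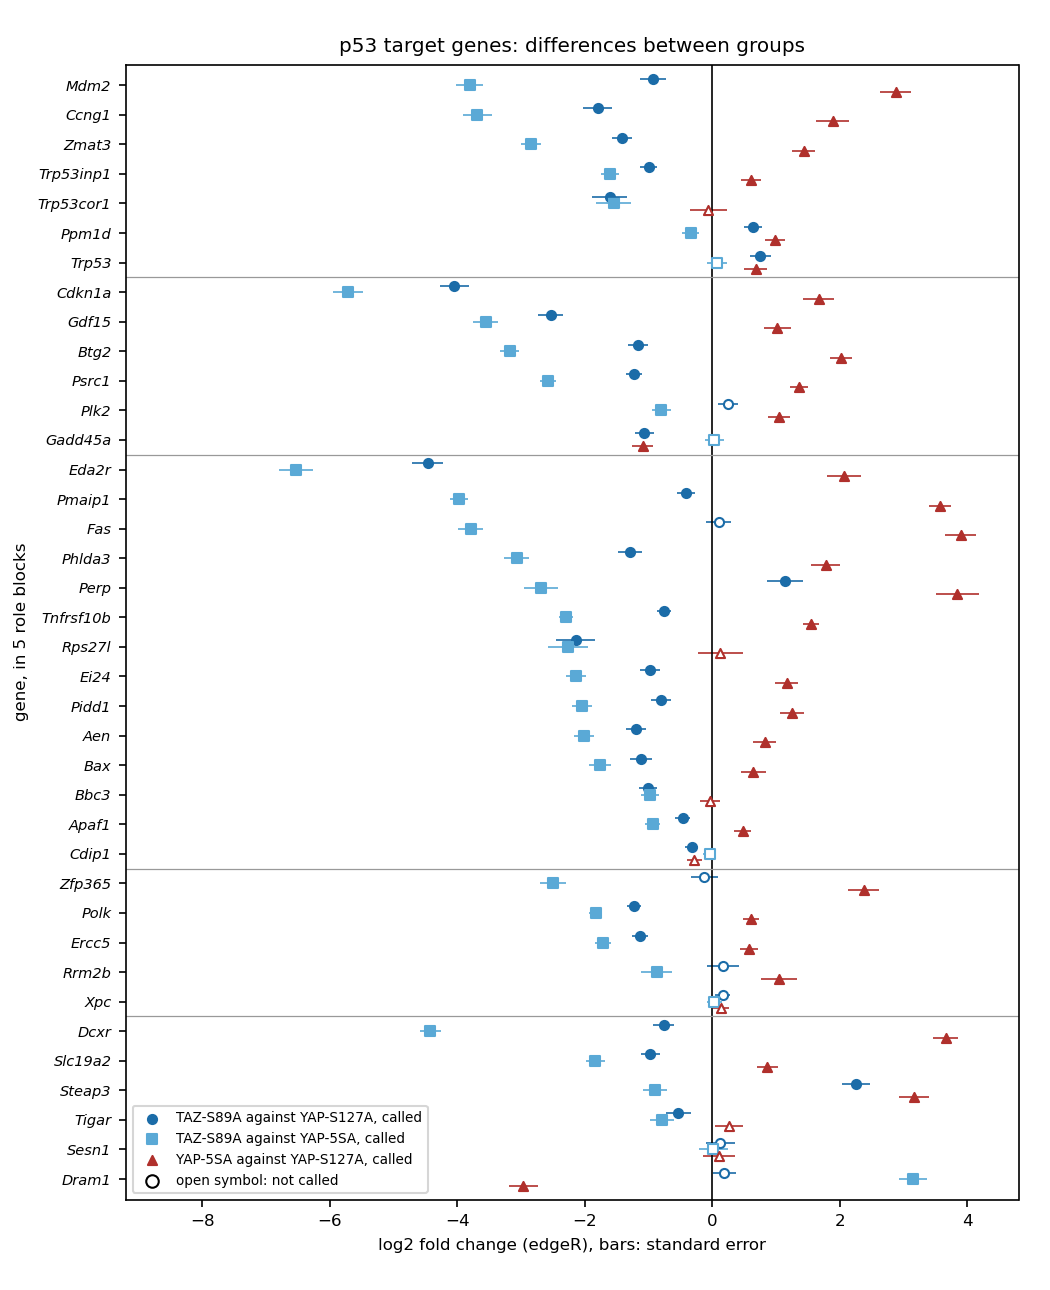
Points give each member's log2 fold change in the 3 comparisons with bars of 1 SE; filled points are called at an adjusted p under 0.05. Of 38 members, 27 are called lower in TAZ-S89A than in YAP-S127A, 32 lower in TAZ-S89A than in YAP-5SA and 29 higher in YAP-5SA than in YAP-S127A.

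The promoter sequences of the members show where the p53 motif lies next to the genes that follow. RefSeq (GRCm38.p6) windows of 300 bases, from 250 before to 50 after a start, were at hand for 30 members, which have 43 such windows. An exact p53 half-site decamer stood in 13 of the 43 windows (30.2%), those of Aen, Bax, Ccng1, Cdkn1a, Ei24, Gadd45a, Mdm2, Polk, Ppm1d, Rps27l, Sesn1 and Trp53, against 2745 of 32851 windows of all genes (8.36%). A pair of decamers with a spacer of up to 13 bases, at most 2 mismatches in all and both cores intact stood in 5 of the 43 (11.6%), against 697 of 32851 (2.12%). The motif reads the same on both strands, so 1 search covers both, and a pair can contain an exact half-site. A match describes letters only, and no match says only that these letters are not in the window. The 5 windows with a pair are printed 5′ to 3′ on the strand of the gene, without exonic bases, with the decamers in capitals; they are shown because their genes include Cdkn1a, Bax and Rps27l, members that separate the groups, and Sesn1, which does not.
Bax: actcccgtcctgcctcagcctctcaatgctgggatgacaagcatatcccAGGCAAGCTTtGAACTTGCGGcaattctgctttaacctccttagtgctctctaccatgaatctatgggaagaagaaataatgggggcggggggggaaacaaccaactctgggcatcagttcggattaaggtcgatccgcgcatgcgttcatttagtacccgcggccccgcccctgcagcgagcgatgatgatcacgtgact
Cdkn1a: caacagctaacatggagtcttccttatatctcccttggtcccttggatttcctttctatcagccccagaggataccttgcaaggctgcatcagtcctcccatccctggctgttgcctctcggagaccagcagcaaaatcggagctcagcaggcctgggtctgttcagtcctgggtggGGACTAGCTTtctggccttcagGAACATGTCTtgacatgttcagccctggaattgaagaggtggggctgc
Rps27l: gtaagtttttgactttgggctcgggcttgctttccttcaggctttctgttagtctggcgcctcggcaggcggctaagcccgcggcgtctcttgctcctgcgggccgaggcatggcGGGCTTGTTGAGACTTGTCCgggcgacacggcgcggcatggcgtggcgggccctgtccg
Sesn1: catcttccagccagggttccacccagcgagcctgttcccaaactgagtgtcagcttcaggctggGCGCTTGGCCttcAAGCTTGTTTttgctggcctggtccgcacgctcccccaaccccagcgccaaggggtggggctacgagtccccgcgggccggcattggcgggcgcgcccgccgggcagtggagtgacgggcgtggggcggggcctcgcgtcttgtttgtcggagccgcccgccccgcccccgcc
Zfp365: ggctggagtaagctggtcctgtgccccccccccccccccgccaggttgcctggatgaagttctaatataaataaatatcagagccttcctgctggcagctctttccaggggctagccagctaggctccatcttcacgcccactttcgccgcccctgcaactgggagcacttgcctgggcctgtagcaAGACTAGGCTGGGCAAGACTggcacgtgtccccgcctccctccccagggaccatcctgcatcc

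The Bax window is chr7:45466899-45467148 on the minus strand, where the pair begins 201 bases before the start and has 2 mismatches and a spacer of 1 base. It also lies in the annotated gene Gm45808. The Cdkn1a window is chr17:29090729-29090975 on the plus strand, with a pair of 0 mismatches and a spacer of 12 bases. This pair begins 73 bases before the outermost annotated start of the gene, at base 29090979. Which start of Cdkn1a these cells use was not examined. Directly after the second Cdkn1a decamer in capitals stands another decamer with an intact core and 1 mismatch, left in small letters. These neighbours form a pair with no spacer. In each window only the pair with the fewest mismatches is marked. The Rps27l stretch is chr9:66946181-66946354 on the plus strand, between exons and next to an internal start of the gene; its pair begins 117 bases before that start, with 1 mismatch and no spacer. The Sesn1 window is chr10:41887189-41887438 on the plus strand, where the pair begins 186 bases before an internal start, with 2 mismatches and a spacer of 3 bases. The Zfp365 window is chr10:67912663-67912912 on the minus strand, with the pair 63 bases before the start, 2 mismatches and no spacer. No measurement of p53 binding was analysed here.

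Among the 7 members that are p53 itself or act back on it, Trp53 and its phosphatase gene Ppm1d were higher in TAZ-S89A than in YAP-S127A and the other 5 were lower (27.0% and 30.6% of all genes). Against YAP-5SA, 6 of the 7 were lower in TAZ-S89A (31.0% of all genes) and none was higher. Trp53 mRNA was 94.0, 90.4 and 83.3 CPM in the YAP-S127A libraries, 140.1, 134 and 155 CPM in YAP-5SA and 131, 126, 132, 179.6 and 181 CPM in TAZ-S89A replicates 1 to 5. YAP-S127A was lowest without overlap, while TAZ-S89A and YAP-5SA overlapped. Trp53 rose 1.68-fold in TAZ-S89A over YAP-S127A, a log2 fold change of 0.75 (adjusted p = 0.00154, SE 0.17), and 1.60-fold in YAP-5SA over YAP-S127A, log2 fold change 0.68 (adjusted p = 0.00567, SE 0.18). Between TAZ-S89A and YAP-5SA the log2 fold change of Trp53 was 0.07 (adjusted p = 0.735, SE 0.16), and it was -0.12 without TAZ-S89A replicates 4 and 5, which held the 2 highest Trp53 values. The group with the lowest target levels was not the one with the lowest Trp53 mRNA.

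Mdm2 mRNA, whose product marks p53 for degradation, stood at 163, 157 and 178 CPM in YAP-S127A, 1045, 1573 and 1031 CPM in YAP-5SA and 84.5, 82.9, 113, 77.2 and 75.1 CPM in TAZ-S89A. No groups overlapped, and YAP-5SA lay far above the other groups. It was 1.92-fold lower in TAZ-S89A than in YAP-S127A, with a log2 fold change of -0.94 (adjusted p = 0.00136, SE 0.20), and 14.0-fold lower than in YAP-5SA, log2 fold change -3.81 (adjusted p = 2.3e-09, SE 0.21). YAP-5SA exceeded YAP-S127A 7.32-fold in Mdm2, log2 fold change 2.87 (adjusted p = 3.48e-07, SE 0.25). Ccng1, which encodes cyclin G1 and was among the first p53 targets described, followed the same order: 362, 409 and 492 CPM in YAP-S127A, 1372, 2042 and 1247 CPM in YAP-5SA and 110.3, 114, 161, 107 and 111 CPM in TAZ-S89A. Its log2 fold changes were -1.80 (adjusted p = 1.08e-05, SE 0.22) for TAZ-S89A against YAP-S127A and -3.69 (adjusted p = 8.5e-09, SE 0.23) against YAP-5SA. Within TAZ-S89A, replicate 3 was the highest in both genes.

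Zmat3, an RNA-binding zinc-finger protein, measured 75.2 ± 4.97 CPM (SD, n = 3) in YAP-S127A, 203 ± 29.4 (n = 3) in YAP-5SA and 28.2 ± 4.65 (n = 5) in TAZ-S89A; an overlapping gene, 4930429B21Rik, makes its counts uncertain because the strand used in counting is not given in the sources used here. Trp53inp1, a nuclear stress protein that promotes p53 phosphorylation, measured 38.9 ± 3.73, 59.2 ± 2.96 and 19.4 ± 3.27 CPM in the same order. Both fell in TAZ-S89A against each YAP group, with log2 fold changes of -1.42 and -2.85 for Zmat3 and -1.0 and -1.61 for Trp53inp1, and both rose in YAP-5SA over YAP-S127A (1.43 and 0.61). Ppm1d, the phosphatase that turns the damage signal off, was 7.96 to 9.11 CPM in YAP-S127A, 11.6 to 15.7 in TAZ-S89A and 14.8 to 18.6 in YAP-5SA. It was higher in TAZ-S89A than in YAP-S127A by 0.63 (adjusted p = 0.00156, SE 0.14) on the log2 scale. Against YAP-5SA the log2 fold change was -0.34 (adjusted p = 0.0417, SE 0.13), and the adjusted p ranged from 0.0248 to 0.189 over 21 alternatives, 16 of which ended the call. Of the 11 omissions of 1 library, those of YAP-5SA replicate 1 and of TAZ-S89A replicate 3 kept it, and the others ended it, with adjusted p from 0.0551 to 0.165. Trp53cor1, the long non-coding RNA lincRNA-p21 transcribed beside Cdkn1a, was at 2.53 to 3.15 CPM in YAP-S127A, 2.29 to 3.24 in YAP-5SA and 0.522 to 1.55 in TAZ-S89A, with log2 fold changes in TAZ-S89A of -1.61 (adjusted p = 0.000198, SE 0.27) and -1.55 (adjusted p = 0.000249, SE 0.27) against these YAP groups.

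The members that halt the cell cycle or signal growth arrest included Cdkn1a, whose fall was exceeded among the members only by that of Eda2r. Of these 6, 5 were lower in TAZ-S89A than in YAP-S127A and 5 lower than in YAP-5SA (30.6% and 31.0% of all genes), with medians of -1.20 and -2.88 on the log2 scale, and none was higher in either. Cdkn1a encodes p21, the inhibitor of cyclin-dependent kinases through which p53 blocks entry into S phase. Its mRNA was 84.9, 89.3 and 83.0 CPM in YAP-S127A, 272, 261 and 284 CPM in YAP-5SA and 3.75, 3.81, 4.15, 7.79 and 6.59 CPM in TAZ-S89A. All 5 TAZ-S89A libraries lay below 10 CPM and replicates 4 and 5 were the highest of them. The level in TAZ-S89A was 16.4-fold below YAP-S127A, a log2 fold change of -4.05 (adjusted p = 2.85e-09, SE 0.23), and 52.2-fold below YAP-5SA, log2 fold change -5.72 (adjusted p = 1.2e-10, SE 0.24). The log2 fold change of YAP-5SA over YAP-S127A was 1.67 (adjusted p = 6.01e-05, SE 0.25).

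Gdf15, a secreted stress cytokine of the TGF-β family, was 22.0, 17.9 and 21.7 CPM in YAP-S127A, 47.4, 39.3 and 37.9 CPM in YAP-5SA and 3.02, 2.67, 2.99, 3.83 and 5.38 CPM in TAZ-S89A, again without overlap. Its log2 fold changes in TAZ-S89A were -2.54 (adjusted p = 8.18e-08, SE 0.19) against YAP-S127A and -3.55 (adjusted p = 2.18e-09, SE 0.20) against YAP-5SA. Btg2, an antiproliferative cofactor of mRNA deadenylation, measured 20.4 ± 1.23 CPM (SD, n = 3), 82.4 ± 7.11 (n = 3) and 9.13 ± 1.85 (n = 5) in YAP-S127A, YAP-5SA and TAZ-S89A. Psrc1, a microtubule-binding protein of the spindle, measured 66.5 ± 7.28, 170.0 ± 20.4 and 28.3 ± 2.02 CPM. Both were lower in TAZ-S89A than in either YAP group, with log2 fold changes of -1.17 and -3.18 for Btg2 and -1.23 and -2.59 for Psrc1, and higher in YAP-5SA than in YAP-S127A (2.01 and 1.35).

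Gadd45a, a stress sensor that binds p21 and PCNA, and Plk2, a polo-like kinase, did not follow this order. Gadd45a was 35.1, 36.9 and 41.2 CPM in YAP-S127A, 16.3, 21.2 and 15.6 CPM in YAP-5SA and 14.8, 17.1, 21.8, 18.0 and 18.5 CPM in TAZ-S89A. YAP-S127A was the highest group without overlap and the other groups overlapped. Its log2 fold changes were -1.07 (adjusted p = 2.23e-05, SE 0.14) for TAZ-S89A against YAP-S127A, -1.09 (adjusted p = 6.85e-05, SE 0.16) for YAP-5SA against YAP-S127A, and 0.03 (adjusted p = 0.89, SE 0.15) for TAZ-S89A against YAP-5SA; E230016M11Rik overlaps it. Plk2 was 162 to 165 CPM in YAP-S127A and 165 to 210.2 in TAZ-S89A, a log2 fold change of 0.24 (adjusted p = 0.179, SE 0.15), and 331 to 348 CPM in YAP-5SA, above every library of the other groups. Against YAP-5SA the log2 fold change of Plk2 was -0.80 (adjusted p = 0.000303, SE 0.15).

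**Figure D3:**
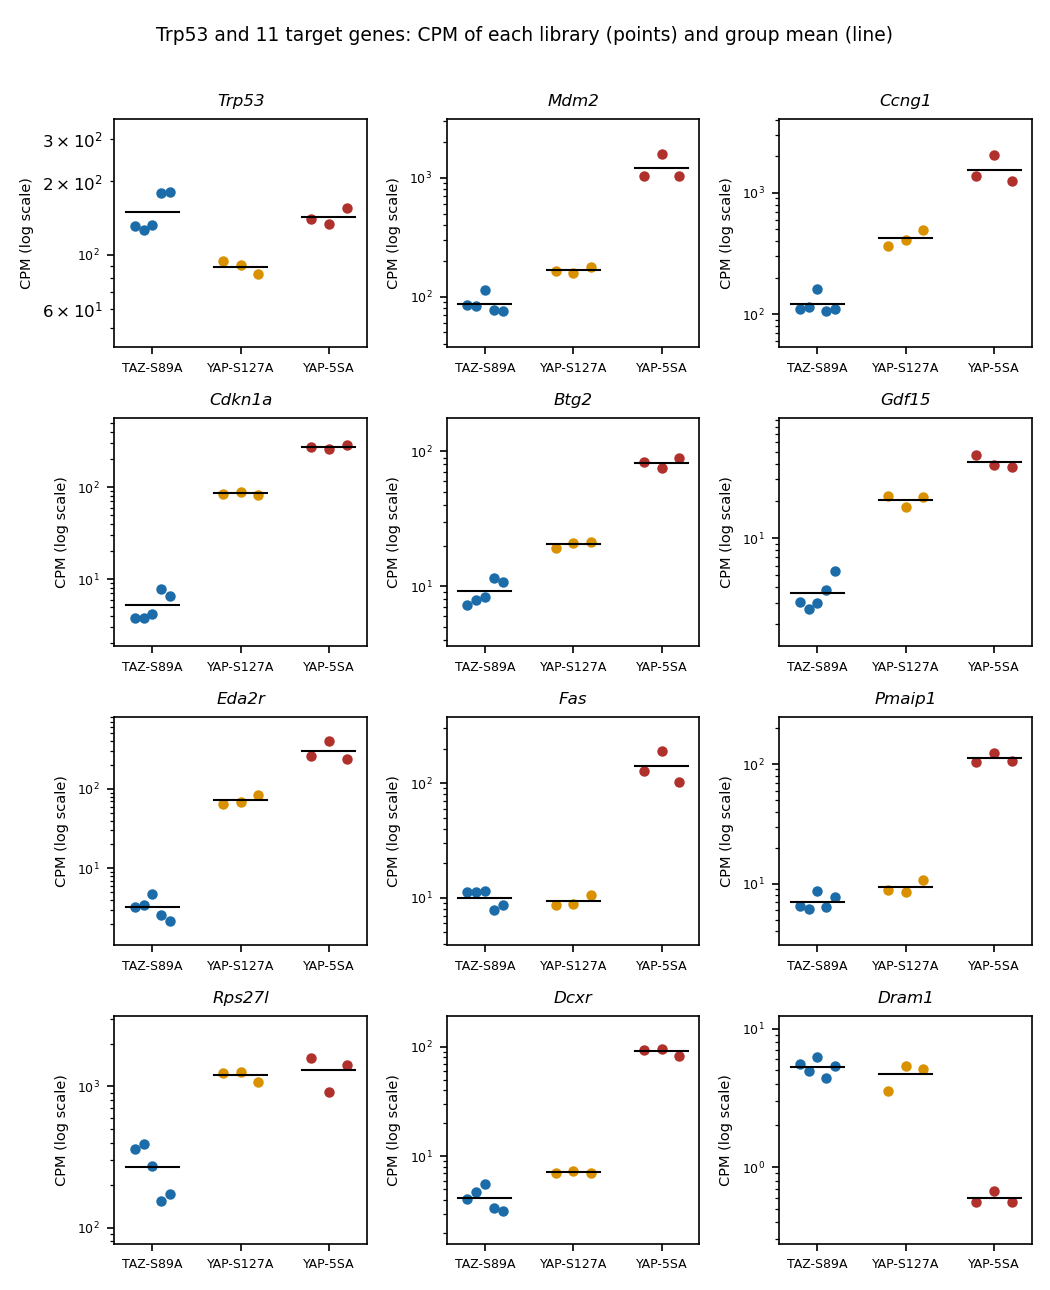
Points are the CPM of single libraries on a log10 axis for Trp53 and 11 other members, with the 3 groups side by side and a line at each group mean. Cdkn1a and Eda2r show the widest gap between TAZ-S89A and the YAP groups, Trp53 is highest in TAZ-S89A replicates 4 and 5, and Dram1 is lowest in YAP-5SA.

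Of the 14 members that act in apoptosis, 12 were lower in TAZ-S89A than in YAP-S127A, 1 (Perp) was higher and 1 (Fas) was not called, where 30.6% of all genes were lower and 27.0% higher. Against YAP-5SA, 13 were lower (31.0% of all genes) and Cdip1 was not called. In YAP-5SA, 11 were higher than in YAP-S127A (28.2% of all genes) and none was lower. The median log2 fold changes were -0.89, -2.21 and 1.21 in these comparisons.

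The death receptors differed in how they separated the groups. Eda2r, a receptor of the TNF receptor family for ectodysplasin A2, was 63.8, 69.2 and 84.7 CPM in YAP-S127A, 263, 406 and 241 CPM in YAP-5SA and 3.26, 3.43, 4.78, 2.57 and 2.17 CPM in TAZ-S89A, the largest fall of all members in both comparisons of TAZ-S89A. It was 22.4-fold below YAP-S127A, with a log2 fold change of -4.47 (adjusted p = 2.45e-09, SE 0.25), and 93.6-fold below YAP-5SA, log2 fold change -6.53 (adjusted p = 8.6e-11, SE 0.26). Fas, the receptor of Fas ligand, was 8.74, 8.89 and 10.7 CPM in YAP-S127A, 128, 190.0 and 102 CPM in YAP-5SA and 11.3, 11.3, 11.4, 7.79 and 8.64 CPM in TAZ-S89A. YAP-5SA alone was high, and the other groups overlapped. The Fas log2 fold change was 0.10 (adjusted p = 0.689, SE 0.20) between TAZ-S89A and YAP-S127A, and the gene was 14.9-fold higher in YAP-5SA than in YAP-S127A, log2 fold change 3.89 (adjusted p = 1.23e-08, SE 0.24). Tnfrsf10b, the TRAIL receptor, measured 29.5 ± 0.885, 85.8 ± 8.23 and 17.4 ± 1.52 CPM (SD, n = 3, 3 and 5) in YAP-S127A, YAP-5SA and TAZ-S89A, without overlap. Its log2 fold changes in TAZ-S89A were -0.76 (adjusted p = 5.1e-05, SE 0.11) against YAP-S127A and -2.30 (adjusted p = 4.7e-10, SE 0.11) against YAP-5SA, and that of Fas against YAP-5SA was -3.79 (adjusted p = 1.05e-09, SE 0.20).

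Bax, the effector that permeabilises the outer mitochondrial membrane, was 196, 203 and 233 CPM in YAP-S127A, 346, 352 and 286 CPM in YAP-5SA and 91.2, 102, 126, 77.0 and 85.9 CPM in TAZ-S89A, and no groups overlapped. The log2 fold change of Bax in TAZ-S89A was -1.13 (adjusted p = 8.31e-05, SE 0.17) against YAP-S127A and -1.77 (adjusted p = 9.31e-07, SE 0.17) against YAP-5SA. The rise in YAP-5SA over YAP-S127A, 0.64 (adjusted p = 0.0142, SE 0.20), lost its call without YAP-S127A replicate 1 (adjusted p = 0.0611) or replicate 2 (adjusted p = 0.0547), over a range of 0.00107 to 0.0611 in 21 alternatives. The 2 BH3-only members, which activate Bax by binding its inhibitors, had different patterns. Bbc3 (PUMA) was 20.3, 20.2 and 18.4 CPM in YAP-S127A, 21.9, 14.6 and 21.1 CPM in YAP-5SA and 8.85, 9.14, 10.6, 9.62 and 10.4 CPM in TAZ-S89A, so that TAZ-S89A was low and the YAP groups overlapped, with a log2 fold change of -0.04 (adjusted p = 0.867, SE 0.16) between the YAP groups. In TAZ-S89A the log2 fold changes of Bbc3 were -1.02 (adjusted p = 2.99e-05, SE 0.14) against YAP-S127A and -0.98 (adjusted p = 3.73e-05, SE 0.14) against YAP-5SA. Pmaip1 (NOXA) was 8.91, 8.50 and 10.7 CPM in YAP-S127A, 104, 125 and 106 CPM in YAP-5SA and 6.51, 6.13, 8.67, 6.32 and 7.68 CPM in TAZ-S89A, high in YAP-5SA and overlapping between the other groups. The Pmaip1 log2 fold change in YAP-5SA was 3.57 (adjusted p = 1.15e-09, SE 0.17) against YAP-S127A, and that of TAZ-S89A against YAP-5SA was -3.98 (adjusted p = 3.08e-11, SE 0.14).

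Against YAP-S127A, the Pmaip1 log2 fold change in TAZ-S89A was -0.41 (adjusted p = 0.025, SE 0.14), and its adjusted p ranged from 0.0132 to 0.141 over 21 alternatives. The call was lost without TAZ-S89A replicate 1 (adjusted p = 0.0521), replicate 2 (0.0564) or replicate 4 (0.0714) and without YAP-S127A replicate 3 (0.141). The Pmaip1 call was also lost with near-identical TAZ-S89A libraries summed (adjusted p = 0.131) and with no low-count filter (0.0623). Apaf1, the scaffold of the apoptosome, measured 39.9 ± 2.56 CPM in YAP-S127A, 55.3 ± 7.16 CPM in YAP-5SA and 28.9 ± 2.52 CPM in TAZ-S89A, and Pidd1, which activates caspase-2, measured 55.2 ± 3.88, 131 ± 31.1 and 31.6 ± 3.84 CPM (SD, n = 3, 3 and 5). In TAZ-S89A the log2 fold changes of Apaf1 were -0.47 and -0.94 against YAP-S127A and YAP-5SA, and those of Pidd1 were -0.80 and -2.05, all called. Ikbip overlaps Apaf1, with the same limit on its counts as for Zmat3. Aen, an apoptotic nuclease, Phlda3, which competes with Akt for membrane lipids, and Ei24, a protein of the endoplasmic reticulum that Gm26787 overlaps, followed the order of TAZ-S89A, YAP-S127A and YAP-5SA without overlap, with log2 fold changes of -1.20, -1.30 and -0.98 in TAZ-S89A against YAP-S127A and of -2.02, -3.07 and -2.14 against YAP-5SA. All 6 fold changes of Aen, Phlda3 and Ei24 were called, at adjusted p from 9.1e-09 to 0.000135.

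Perp, a tetraspan membrane protein of desmosomes that p53 induces during apoptosis, was 26.3, 28.4 and 38.2 CPM in YAP-S127A, 390.0, 613 and 325 CPM in YAP-5SA and 70.2, 64.8, 106, 48.5 and 51.6 CPM in TAZ-S89A. The groups did not overlap, and their order put YAP-S127A lowest. Perp was 2.21-fold higher in TAZ-S89A than in YAP-S127A, log2 fold change 1.14 (adjusted p = 0.00343, SE 0.28), and 6.48-fold lower than in YAP-5SA, log2 fold change -2.70 (adjusted p = 1.02e-06, SE 0.27). The summed biliary and epithelial markers given above had the same order of groups, but not as a list: of 7 tested, 2 were higher (Spp1, 3.07, and Krt18, 1.35, on the log2 scale) and 4 lower (Krt7, Krt19, Krt8 and Cdh1, from -6.17 to -2.25) in TAZ-S89A than in YAP-S127A. Spp1 alone averaged 2736 CPM in TAZ-S89A and 326 CPM in YAP-S127A. The part of these markers in the Perp levels was not tested. Cdip1, a mediator of p53-dependent death through TNF, was at 72.9 to 79.9 CPM in YAP-S127A, 62.5 to 64.4 in YAP-5SA and 57.3 to 64.5 in TAZ-S89A. Its log2 fold change of -0.33 (adjusted p = 0.0149, SE 0.10) in TAZ-S89A against YAP-S127A was a call lost without YAP-S127A replicate 1 (adjusted p = 0.0582) or 2 (0.0726) or TAZ-S89A replicate 4 (0.0646) or 5 (0.0611), over a range of 0.00113 to 0.125. The Cdip1 call was also lost with near-identical TAZ-S89A libraries summed (adjusted p = 0.125) and with no low-count filter (0.0973). Hmox2 overlaps Cdip1.

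Rps27l, a ribosomal protein gene that p53 induces, was 1253, 1267 and 1081 CPM in YAP-S127A, 1586, 906 and 1421 CPM in YAP-5SA and 360.2, 392, 272, 154 and 175 CPM in TAZ-S89A. TAZ-S89A lay below every YAP library, its replicates 4 and 5 were the lowest, and the YAP groups overlapped, with YAP-5SA replicate 2 below every YAP-S127A library. The log2 fold changes were -2.15 (adjusted p = 4.71e-05, SE 0.31) against YAP-S127A and -2.27 (adjusted p = 2.57e-05, SE 0.31) against YAP-5SA. A closely similar paralog can share its reads, so its level is uncertain.

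The 5 repair genes were less uniform. Against YAP-S127A, 2 of 5 were lower in TAZ-S89A and 3 were not called (median log2 fold change -0.13), near the 30.6% of all genes called lower. Against YAP-5SA, 4 of 5 were lower (median -1.71; 31.0% of all genes), and 4 of 5 were higher in YAP-5SA than in YAP-S127A (median 0.60; 28.2% of all genes). Polk, a translesion DNA polymerase, was 52.3, 49.0 and 48.0 CPM in YAP-S127A, 71.5, 80.5 and 75.4 CPM in YAP-5SA and 21.7, 22.1, 18.3, 23.1 and 21.2 CPM in TAZ-S89A, with no overlap of groups. Against YAP-S127A and YAP-5SA its log2 fold changes in TAZ-S89A were -1.23 (adjusted p = 3.31e-07, SE 0.11) and -1.83 (adjusted p = 3.9e-09, SE 0.11). Ercc5, the endonuclease XPG of nucleotide excision repair, measured 37.4 ± 5.0, 55.8 ± 3.18 and 17.0 ± 2.04 CPM (SD, n = 3, 3 and 5) in YAP-S127A, YAP-5SA and TAZ-S89A, with log2 fold changes of -1.14 (adjusted p = 4.04e-06, SE 0.13) and -1.71 (adjusted p = 4.92e-08, SE 0.13) in TAZ-S89A.

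Zfp365, a protein that guards genome stability, was 18.8, 20.5 and 20.2 CPM in YAP-S127A, 97.5, 113 and 97.1 CPM in YAP-5SA and 12.6, 13.1, 16.5, 24.1 and 24.5 CPM in TAZ-S89A. YAP-5SA was high, and TAZ-S89A split around YAP-S127A: replicates 1 to 3 lay below it and replicates 4 and 5 above. The log2 fold change against YAP-S127A was -0.13 (adjusted p = 0.614, SE 0.21), and -0.51 (adjusted p = 0.00525) without replicates 4 and 5, over a range of adjusted p of 0.0029 to 0.936 in 21 alternatives. Rrm2b, the ribonucleotide reductase subunit that p53 induces, was 15.6, 14.8 and 19.7 CPM in YAP-S127A, 28.0, 48.1 and 26.8 CPM in YAP-5SA and 19.2, 19.1, 28.0, 13.5 and 13.6 CPM in TAZ-S89A, where YAP-5SA replicate 2 was far above its group. The log2 fold change of TAZ-S89A against YAP-5SA, -0.87 (adjusted p = 0.00713, SE 0.24), became -0.55 (adjusted p = 0.0784) without YAP-5SA replicate 2, over a range of 0.00073 to 0.0784. Xpc, which recognises damage in nucleotide excision repair, stayed between 14.2 and 17.6 CPM over all 11 libraries, with both extremes in YAP-5SA, and was called in no comparison (adjusted p of 0.251, 0.843 and 0.407).

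Among the 6 members in metabolism, autophagy and transport, 3 were lower and 1 higher in TAZ-S89A than in YAP-S127A, 4 were lower and 1 higher than in YAP-5SA, and 3 were higher and 1 lower in YAP-5SA than in YAP-S127A. The shares of all genes called lower and higher were 30.6% and 27.0% in the first comparison, 31.0% and 26.9% in the second, and 27.0% and 28.2% in the third. Dcxr, a reductase of sugars and dicarbonyls, was 7.06, 7.35 and 7.05 CPM in YAP-S127A, 92.8, 96.1 and 82.3 CPM in YAP-5SA and 4.03, 4.75, 5.54, 3.38 and 3.17 CPM in TAZ-S89A. The groups did not overlap, and YAP-5SA alone was high. Dcxr was 21.7-fold lower in TAZ-S89A than in YAP-5SA, log2 fold change -4.42 (adjusted p = 3.93e-11, SE 0.16). Against YAP-S127A its log2 fold change was -0.77 (adjusted p = 0.0012, SE 0.16). Slc19a2, a thiamine transporter, measured 49.4 ± 2.99, 89.8 ± 11.7 and 25.2 ± 4.25 CPM (SD, n = 3, 3 and 5) in YAP-S127A, YAP-5SA and TAZ-S89A, without overlap, with log2 fold changes in TAZ-S89A of -0.97 and -1.84 against YAP-S127A and YAP-5SA, both called.

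Steap3, an endosomal ferrireductase, and Dram1, a lysosomal membrane protein that promotes autophagy, had other orders. Steap3 was 1.74, 1.71 and 2.08 CPM in YAP-S127A, 16.5, 16.8 and 16.0 CPM in YAP-5SA and 6.27, 6.77, 9.13, 11.4 and 10.8 CPM in TAZ-S89A, so that YAP-S127A was lowest without overlap. It was 4.81-fold higher in TAZ-S89A than in YAP-S127A, log2 fold change 2.26 (adjusted p = 9.8e-07, SE 0.22). Against YAP-5SA its log2 fold change was -0.90 (adjusted p = 0.000857, SE 0.19), a lower level. Dram1 was 3.57, 5.38 and 5.14 CPM in YAP-S127A, 0.561, 0.669 and 0.557 CPM in YAP-5SA and 5.54, 4.92, 6.23, 4.44 and 5.43 CPM in TAZ-S89A. YAP-5SA was lowest, from 21 counts upward, and the other groups overlapped. Dram1 was 7.88-fold lower in YAP-5SA than in YAP-S127A, log2 fold change -2.96 (adjusted p = 1.16e-07, SE 0.23). Its log2 fold change between TAZ-S89A and YAP-S127A was 0.18 (adjusted p = 0.388, SE 0.18); Washc3 overlaps it.

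Tigar, which lowers fructose-2,6-bisphosphate and so slows glycolysis, was 55.8, 60.1 and 57.8 CPM in YAP-S127A, 71.9, 74.3 and 61.5 CPM in YAP-5SA and 46.5, 48.0, 48.9, 27.4 and 28.8 CPM in TAZ-S89A, with replicates 4 and 5 far below the other TAZ-S89A libraries. Its log2 fold change of -0.53 (adjusted p = 0.0281, SE 0.19) against YAP-S127A became -0.29 (adjusted p = 0.0365) without replicates 4 and 5. The call was lost without YAP-S127A replicate 1 (adjusted p = 0.0571), 2 (0.0825) or 3 (0.0662) or without TAZ-S89A replicate 5 (0.0529), over a range of 0.0133 to 0.0825. It was also lost with near-identical TAZ-S89A libraries summed (adjusted p = 0.058). Against YAP-5SA the log2 fold change of Tigar was -0.79 (adjusted p = 0.00267, SE 0.19), and -0.52 without replicates 4 and 5. Sesn1, a sestrin that restrains mTORC1, was 12.3 to 12.8 CPM in YAP-S127A, 11.4 to 17.6 in YAP-5SA and 9.60 to 19.7 in TAZ-S89A and was called in no comparison, with adjusted p of 0.668, 0.967 and 0.737.

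Levels of different genes can be compared per transcript length in the deposited nRPKM (reads per kilobase, scaled by library size factors). On that scale Rps27l was the most abundant member in each group, with group means of 1639 nRPKM in YAP-S127A, 1769.9 nRPKM in YAP-5SA and 366 nRPKM in TAZ-S89A. Bax followed in YAP-S127A (198 nRPKM) and in TAZ-S89A (90.6 nRPKM), while in YAP-5SA Ccng1 (360.2 nRPKM), Bax (307) and Mdm2 (295) stood close together. Trp53 was at 32.1, 51.1 and 54.4 nRPKM in YAP-S127A, YAP-5SA and TAZ-S89A. In nRPKM, Mdm2 exceeded Trp53 in YAP-5SA and lay below it in TAZ-S89A (21.1 nRPKM), and Cdkn1a was at 34.7, 109.5 and 2.14 nRPKM. The least abundant members were Dram1 in YAP-5SA (0.165 nRPKM), Trp53cor1 in TAZ-S89A (0.257 nRPKM) and Steap3 in YAP-S127A (0.457 nRPKM).

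Within TAZ-S89A, replicates 4 and 5, of the second series of sample numbers, lay both above replicates 1 to 3 for 10 members, both below them for 11, and overlapped them for 17. The share outside, 55.3%, compares with 53.3% of all genes tested. The ratio of the mean CPM of replicates 4 and 5 to that of replicates 1 to 3 was 1.84 for Cdkn1a, 1.73 for Zfp365 and 1.39 for Trp53, and 0.481 for Rps27l, 0.587 for Tigar, 0.595 for Sesn1 and 0.620 for Eda2r. The falls of Cdkn1a and Eda2r against the YAP groups were thus many times larger than the differences within TAZ-S89A.

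Other genes of the pathway were counted from lists of known targets and regulators. Of 36 further p53 targets, 35 were tested: 9 were higher and 12 lower in TAZ-S89A than in YAP-S127A, 4 higher and 23 lower than in YAP-5SA, and 26 higher and 5 lower in YAP-5SA than in YAP-S127A, with medians of -0.19, -1.22 and 0.77 on the log2 scale. Of all genes tested, 27.0% were higher and 30.6% lower in the first of these comparisons, 26.9% and 31.0% in the second, and 28.2% and 27.0% in the third, so that against YAP-S127A the shares of the further targets in TAZ-S89A were near those of all genes. The widest called changes were those of Cpt1c, a carnitine palmitoyltransferase of the brain (-7.29 and -8.09 for TAZ-S89A against YAP-S127A and YAP-5SA), and Ass1, the urea-cycle enzyme argininosuccinate synthase (-3.51 and -5.35). Upward in TAZ-S89A against YAP-S127A were the phosphatase gene Ptprv (2.31) and the BH3-only gene Bik (2.12). Ptprv averaged 2.05 CPM in YAP-S127A and 10.1 CPM in TAZ-S89A, and Ptpn7 overlaps it, with the same limit on its counts as for Zmat3. Bik levels were low, at means of 0.122 CPM in YAP-S127A (3 to 7 counts), 1.24 CPM in YAP-5SA and 0.542 CPM in TAZ-S89A. Against YAP-5SA, the phosphatase gene Ptp4a3 and the epoxide hydrolase gene Ephx1 were lower, with log2 fold changes of -3.59 and -3.31. In YAP-5SA over YAP-S127A the leaders were Ptp4a3 (3.32), Bik (3.28), Ephx1 (3.01) and the lipase gene Abhd4 (2.80).

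Genes that act upstream of p53 or beside it did not show one direction. Of 30 kinases, ligases and cofactors, 29 were tested: 10 were higher and 5 lower in TAZ-S89A than in YAP-S127A, 9 higher and 3 lower than in YAP-5SA, and 5 higher and 7 lower in YAP-5SA than in YAP-S127A, with medians of 0.09, 0.15 and -0.15. The all-gene shares are those just given for the further targets. Cdkn2a, the locus of p16 and of the Mdm2 inhibitor Arf, whose products a gene count cannot separate, was 38.2, 47.1 and 61.0 CPM in YAP-S127A, 124, 165 and 91.3 CPM in YAP-5SA and 199, 176, 346, 79.4 and 80.9 CPM in TAZ-S89A. YAP-S127A was lowest without overlap, and TAZ-S89A spread around YAP-5SA. On the log2 scale Cdkn2a rose by 1.86 (adjusted p = 0.00251, SE 0.44) in TAZ-S89A and by 1.38 (adjusted p = 0.0213, SE 0.46) in YAP-5SA, both against YAP-S127A. Cdkn2b, which encodes p15, rose in TAZ-S89A on the same scale by 3.58 (adjusted p = 3.91e-08, SE 0.26) against YAP-S127A and 1.98 (adjusted p = 5.5e-06, SE 0.23) against YAP-5SA. Mdm4, the partner of Mdm2 that masks p53, was highest in YAP-S127A, at 264 to 303 CPM against 124 to 179 in YAP-5SA and 77.0 to 129 in TAZ-S89A, with log2 fold changes of -1.34 (adjusted p = 2.83e-05, SE 0.18) and -0.50 (adjusted p = 0.0336, SE 0.19) for TAZ-S89A against YAP-S127A and YAP-5SA.

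The p53 relatives were nearly silent: Trp63 was at 0.0891 to 0.131 CPM in YAP-S127A, 0.287 to 0.561 in YAP-5SA and 0.448 to 0.825 in TAZ-S89A, and Trp73 had too few counts to be tested. Trp63 was called higher in TAZ-S89A and in YAP-5SA than in YAP-S127A, with log2 fold changes of 2.56 and 1.83; the values that follow are log2 fold changes too. Twist1, a transcription factor that binds p53, differed by 2.17 in TAZ-S89A against YAP-5SA and by -1.98 in YAP-5SA against YAP-S127A. Ppp1r13b, the p53 cofactor ASPP1, was higher in TAZ-S89A (1.38) and in YAP-5SA (1.39) than in YAP-S127A. Chek2, the checkpoint kinase that phosphorylates p53, the ribosomal protein gene Rpl11 and the repressor gene Bcl6 were higher in TAZ-S89A than in YAP-5SA by 0.84, 0.81 and 0.73. Rpl11 was 7.99 to 9.20 CPM in YAP-5SA and 17.6, 16.1, 21.0, 9.66 and 11.2 CPM in TAZ-S89A replicates 1 to 5, with replicates 4 and 5 the lowest of that group.

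**Figure D4:**
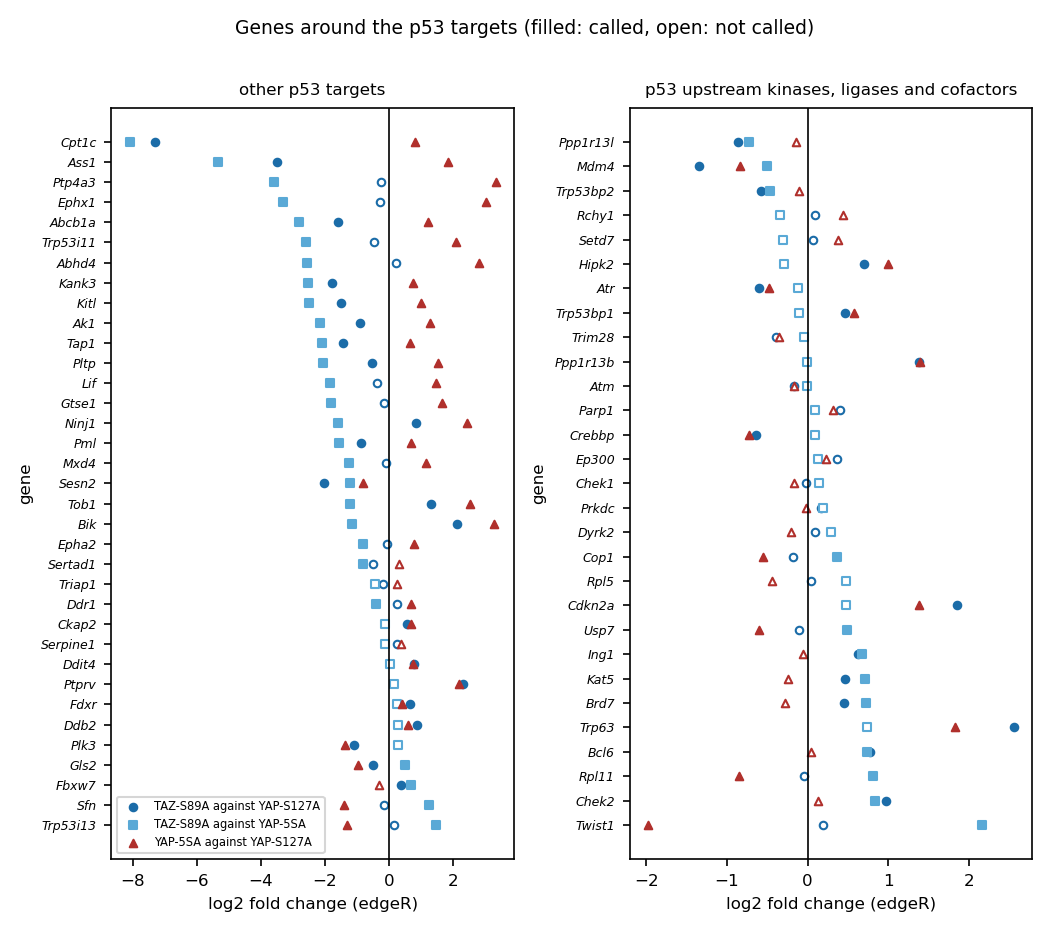
Points are edgeR log2 fold changes of the 35 tested other p53 targets (left panel) and the 29 tested upstream genes (right panel) in the 3 comparisons, filled where called at an adjusted p under 0.05, with a line at 0. The squares for TAZ-S89A against YAP-5SA lie mostly below 0 for the other targets (median -1.22) and spread around 0 for the upstream genes (median 0.15).

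The neighbourhood of Trp53 on chromosome 11 was also read. Of 60 tested genes within 0.5 Mb, 23 were higher and 15 lower in TAZ-S89A than in YAP-S127A (median log2 fold change 0.19; 27.0% and 30.6% of all genes), and 17 were higher and 17 lower than in YAP-5SA (median -0.06; 26.9% and 31.0% of all genes). In YAP-5SA, 21 were higher and 14 lower than in YAP-S127A (median 0.33; 28.2% and 27.0% of all genes). Wrap53, which lies head to head with Trp53, was higher in TAZ-S89A than in YAP-S127A by 0.74 (adjusted p = 9.9e-05, SE 0.12). Its log2 fold change was 1.06 (adjusted p = 9.55e-06, SE 0.13) for YAP-5SA against YAP-S127A. For TAZ-S89A against YAP-5SA it was -0.31 (adjusted p = 0.0273, SE 0.11). Of the nearest others before Trp53, Efnb3 changed on the log2 scale by 1.02 against YAP-S127A and 0.60 against YAP-5SA, and Dnah2 was called in no comparison. After it, Sat2 changed by -1.59 and -1.03, and Fxr2 and Sox15 were not called. Around Mdm2, a window chosen after its values were seen, 9 genes were tested. In YAP-5SA, 3 were higher and 1 lower than in YAP-S127A (median 0.24, against 28.2% and 27.0% of all genes). In TAZ-S89A, 2 were higher and 3 lower than in YAP-S127A (median -0.29, against 27.0% and 30.6%). Against YAP-5SA, 3 were higher and 2 lower (median -0.17, against 26.9% and 31.0%). The nearest, the carboxypeptidase gene Cpm, rose by 2.29 in YAP-5SA over YAP-S127A, at low means of 1.44 and 0.297 CPM.

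Whole chromosomes differed between the groups as well. Median log2 fold changes of the chromosomes that carry members ran from -0.70 to 0.30 for TAZ-S89A against YAP-S127A, from -0.76 to 0.95 against YAP-5SA and from -0.70 to 0.62 for YAP-5SA against YAP-S127A. Of the 38 members, 30 lay below the median of their own chromosome in the first comparison and 33 in the second, and 34 lay above it in the third. The median of member minus chromosome was -0.48, -1.67 and 1.05. Chromosome 17, with Cdkn1a and Trp53cor1, had medians of 0.20 and 0.95 in the comparisons of TAZ-S89A, opposite in sign to the changes of both genes. The part of the chromosome in the levels of both genes was not tested. Chromosome 7, with Bax, Bbc3, Pidd1 and Aen, had medians of -0.70 and -0.54, in the direction of these members, and chromosome 9, with Ei24 and Rps27l, had -0.67 and -0.56; their part in the falls of these 6 members was not tested.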

How the data were processed

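Poly(A) RNA from 11 libraries (3 YAP-S127A, 3 YAP-5SA and 5 TAZ-S89A) was measured. The deposited files hold raw counts, unique reads per Entrez gene model per the file headers, and nRPKM, an RPKM that the authors adjusted by library size factors, per the file headers. Reads were aligned with GSNAP to GRCm38, per the submitters' processing notes. For the aligner's version, the counting tool and the strand setting: not given in the sources used here. Groups were taken from the mutation label. Symbols came from RefSeq (GRCm38.p6), which named 31049 of 36528 identifiers; those without a symbol held 2.91% of counts.

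Counts were scaled by TMM, filtered with filterByExpr by group (18304 genes removed, 18224 kept) and fitted for all 11 libraries with edgeR 4.0.16 (robust quasi-likelihood, R 4.3.3), with Benjamini-Hochberg adjustment over all genes kept. The SE is the absolute log2 fold change divided by the square root of F. On counts simulated for TAZ-S89A against YAP-S127A over 18224 genes, 200 of them changed by 1 on the log2 scale, 81.5% were recovered and 5.2% of calls were false. The changed genes were picked above a limit on mean level, all other genes were equal between groups, and libraries were drawn independently. The real libraries differ in many more genes and include near-identical pairs, so these shares may not carry over to them. Members and lists were chosen with earlier results of these data known. All members are named by role, with per-library values for Trp53 and the widest changes. Of each other list, up to 4 called genes with the largest changes per comparison are named, and Cdkn2a, Cdkn2b, Mdm4, Trp63, Trp73 and Wrap53 always. Alternatives were RLE and upper-quartile scaling, DESeq2 1.42.0, limma-voom (limma 3.58.1), no and a strict filter, only the groups compared, the sample-number series as covariate or left out, near-identical libraries summed, and each library left out.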

Additional observations from a re-analysis of the deposited data

Results flagged for a closer look

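In TAZ-S89A, the level of replicate 3 stood far from the other 4 libraries for 4 of the 38 members, each by a gap above Dixon's 95% critical value for 5 samples. With independent libraries, chance alone would mark about 1 in 20 groups. Replicates 1 and 2 were nearly alike, as were replicates 4 and 5, so that rate does not apply here. Replicate 3 was the only library without such a partner, and the gaps are given only as a description. Mdm2 was 113.5 CPM in replicate 3 and 75.1 to 84.5 CPM in the others. Ccng1 was 160.6 CPM against 107.5 to 114.0 CPM. Aen was 43.2 CPM against 27.2 to 29.0 CPM, and Phlda3 was 63.5 CPM against 38.6 to 40.9 CPM. All 4 were high in replicate 3, and each of these values was still below every YAP library.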

How the results depend on the processing

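No paired analysis was possible because the labels give no replicate numbers that groups share; replicates were numbered in accession order. The numbers of members called held within 1.5 times under every alternative run. With 1 library left out at a time, members lower in TAZ-S89A than in YAP-S127A numbered 25 to 27 and members lower than in YAP-5SA 30 to 32, those higher in YAP-5SA than in YAP-S127A 28 to 29, and the other counts stayed at 4, 1 and 2. Under the 10 other alternatives the ranges were 24 to 28, 31 to 32, 29 to 30, and 4, 1 and 2 to 3. Members with every TAZ-S89A library below every YAP library numbered 24 to 25.

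Over the members' 114 fold changes, 2330 values under an alternative kept direction and call, 36 lost the call, 10 gained it and 18 changed sign; the 18 were all of fold changes not called. For TAZ-S89A against YAP-5SA, the log2 fold change of Trp53 turned with the sample-number series as covariate (-0.140) and without the second series (-0.123), and that of Cdip1 with upper-quartile scaling (0.0220) and without the second series (0.0155). With 1 library left out at a time it ran from -0.0605 to 0.177 for Gadd45a (negative without YAP-5SA replicate 1 or 3 or TAZ-S89A replicate 3), from -0.0527 to 0.0957 for Xpc (negative without YAP-5SA replicate 2) and from -0.126 to 0.243 for Sesn1 (negative without YAP-5SA replicate 1 or 3 or TAZ-S89A replicate 1 or 3). For YAP-5SA against YAP-S127A it ran from -0.248 to 0.0421 for Trp53cor1 (positive without YAP-5SA replicate 1 or 2 or YAP-S127A replicate 2), from -0.136 to 0.127 for Bbc3 (positive without YAP-5SA replicate 2), from -0.0425 to 0.326 for Rps27l (negative without YAP-5SA replicate 1) and from -0.121 to 0.222 for Sesn1 (negative without YAP-5SA replicate 2). The cause was not tested. Depth did not limit most members: the fewest counts were those of Dram1 and Trp53cor1.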

Other observations

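In YAP-5SA, replicate 2 was the highest of the 3 libraries for 22 of the 38 members (57.9%) and the lowest for 13 (34.2%), against 39.3% and 44.6% of all genes tested. In TAZ-S89A, replicate 3 was the highest of the 5 libraries for 19 of the 38 members and the lowest for 9 (23.7%), against 29.7% and 28.9% of all genes tested. Both counts were made after the values were seen.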
